A study of Mus musculus with 12 samples.

Results

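Spp1, Gpnmb, Cd68, Lgals3 and Csf1r are 5 of the 55487 genes counted in Min6 cells, a mouse insulinoma line used as a model of the pancreatic beta cell. They are widely used as macrophage markers, and they were chosen by earlier results of these data, in which their counts were higher with an inhibitor of the transcription factor FoxO1 (AS1842856, FoxOi) than with the solvent DMSO. The levels in FoxOi and DMSO that led to this choice are therefore given as a description, with no test. Cells were kept for 48 h in 1 µM FoxOi with 5 µM loperamide (FoxOi_Loperamide), in 1 µM FoxOi alone (FoxOi), in 5 µM loperamide alone (Loperamide) or in DMSO, with 3 libraries per group. Loperamide is an opioid receptor agonist used against diarrhoea. All groups are the same cell line with no introduced allele, so any effect is that of a compound on an insulinoma line. The series title presents the inhibitor as a way to model beta cell dedifferentiation.

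Macrophages are phagocytes of the immune system, rich in lysosomes and dependent on signals through the CSF1 receptor, which Csf1r encodes. Cd68 encodes a lysosomal membrane glycoprotein of the LAMP family, Gpnmb a transmembrane glycoprotein linked to lysosomal stress, Lgals3 the sugar-binding protein galectin-3, and Spp1 the secreted integrin and CD44 ligand osteopontin. Most of these genes are also transcribed outside macrophages, for example in osteoclasts, melanocytes, fibroblasts or epithelia. Csf1r and the leukocyte genes Ptprc and Spi1 are more restricted.

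The sequence upstream of Spp1 and Cd68 is shown because both promoters hold a searched motif, and a short window of Gpnmb is shown because its match lies just after the start. The sequences are from RefSeq on GRCm38.p6, and the promoter windows of Spp1, Gpnmb, Cd68 and Lgals3 were searched. Csf1r was left out of this search, so nothing is said of its promoter. Lower case marks the sequence and capitals mark the match. Spp1 is the 250 bases before its start (chr5:104434861-104435110, plus strand), with GAGGAAGT, a binding word of the myeloid factor PU.1, at 113 bases before the start. Cd68 is the 250 bases before its start (chr11:69666171-69666420, minus strand), with TGANTCA, the word bound by AP-1 (Jun and Fos proteins), at 149 and at 24 bases before the start. Gpnmb is a window of 30 bases (chr6:49036515-49036544, plus strand), with TGANTCA beginning 8 bases after the start.
Spp1: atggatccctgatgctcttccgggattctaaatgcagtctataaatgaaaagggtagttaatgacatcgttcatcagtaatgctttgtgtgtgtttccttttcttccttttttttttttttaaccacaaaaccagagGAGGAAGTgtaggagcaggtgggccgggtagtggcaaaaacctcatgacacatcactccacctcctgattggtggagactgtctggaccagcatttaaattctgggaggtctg
Cd68: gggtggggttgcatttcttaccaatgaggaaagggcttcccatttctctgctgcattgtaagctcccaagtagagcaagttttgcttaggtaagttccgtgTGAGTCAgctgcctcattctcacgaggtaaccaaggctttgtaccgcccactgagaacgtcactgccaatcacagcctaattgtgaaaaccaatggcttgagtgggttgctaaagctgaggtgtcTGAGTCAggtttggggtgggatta
Gpnmb: ccaggggcaagTGACTCAtgagcacgagtt
The words were searched on both strands from 250 bases before to 50 bases after each RefSeq start. AP-1 (TGANTCA) was found in 7.81% of 32817 such windows, PU.1 (GAGGAAGT) in 3.20%, the E-box CACGTG in 7.15%, the M-box CATGTG in 14.2% and the forkhead word GTAAACA in 3.65%. The E-box and M-box are bound by the lysosomal regulators of the MiT/TFE family, and the forkhead word is bound by FoxO proteins. None of the E-box, M-box or forkhead words was found in the windows of Spp1, Gpnmb, Cd68 or Lgals3, and the Lgals3 window held none of the searched words. Its RefSeq start lies 6109 bases from the start that the deposited file gives. No match overlapped a match to another word, and a match is a word in a sequence and not a measured binding site.

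Depth ran from 10640485 to 19499216 counts per library. Levels are given as counts per 1000000 of the scaled library size (CPM) for 1 gene across libraries, and as FPKM, which also divides by gene length, where genes are compared. A gene was called when the adjusted p of edgeR's quasi-likelihood test, over 16808 genes, was under 0.05. Spread between the 3 libraries of a group is the only error these tests see, since the labels do not say that the libraries came from separate cultures. A higher level in these bulk libraries may be more RNA per cell or more cells that hold it, which cannot be told apart. Beta cell markers, 11 genes with Ins2 and Chga among them, summed to between 35868 and 41703 CPM in FoxOi_Loperamide, 43123 and 50260 in FoxOi, 78801 and 79913 in Loperamide, and 80909 and 111738 in DMSO.

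Spp1 had the widest range of CPM of the 5 genes. Spp1 (ENSMUSG00000029304, chromosome 5, 104435118 to 104441050) had 0.979, 1.38 and 0.854 CPM in FoxOi_Loperamide, 182, 235 and 189 CPM in FoxOi, 0.746, 0.836 and 0.575 CPM in Loperamide, and 6.14, 7.78 and 5.72 CPM in DMSO. All FoxOi libraries stood far above the rest, all DMSO libraries stood between, and the libraries with loperamide were at the bottom whether or not the inhibitor was present. FoxOi over DMSO was 4.94 ± 0.15 on the log2 scale (SE, n = 3 each), a ratio of 30.7 (95% counting interval 27.3 to 34.5). FoxOi_Loperamide over FoxOi was -7.56 ± 0.18, which is 190-fold lower (146 to 253). Loperamide over DMSO was -3.19 ± 0.24, which is 9.23-fold lower (6.22 to 14.2).

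In the presence of loperamide the difference made by the inhibitor was small. FoxOi_Loperamide over Loperamide was 0.57 ± 0.32 for Spp1 (edgeR adjusted p = 0.177), with 54 against 27 counts and a ratio of 1.49 (0.922 to 2.46). The 3 FoxOi_Loperamide libraries were all above the 3 Loperamide libraries, but the difference was not called. The predicted gene Gm42793 lies within Spp1 on the same strand and had 4, 5 and 2 counts in FoxOi and 0 in every library of FoxOi_Loperamide, Loperamide and DMSO, so reads of the pair may have been split.

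Gpnmb went with the inhibitor in both settings and was nearly absent without it. Gpnmb (ENSMUSG00000029816, chromosome 6, 49036546 to 49070929) had 63, 40 and 35 counts in FoxOi_Loperamide, 319, 340 and 555 in FoxOi, 0, 1 and 1 in Loperamide, and 0, 0 and 1 in DMSO. Its level was 3.43, 2.50 and 2.13 CPM in FoxOi_Loperamide and 18.5, 18.7 and 28.4 CPM in FoxOi. Every library with the inhibitor stood above every library without it, and the Loperamide and DMSO libraries overlapped. A count of 0 allows up to 0.280 CPM in Loperamide replicate 1, and up to 0.192 and 0.187 CPM in DMSO replicates 1 and 2 (3 counts each).

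Gpnmb rose with the inhibitor in the presence of loperamide, with 138 counts in FoxOi_Loperamide against 2 in Loperamide, a ratio of 51.4 (95% counting interval 14.0 to 428). The fitted log2 fold change was 5.48 ± 0.58 (SE, edgeR adjusted p = 5.21e-06), a value that depends on the prior count because Loperamide is so near 0. Gpnmb passed the filter on low counts only through libraries with the inhibitor, so this adjusted p is not read as support. FoxOi held 1214 counts against 1 in DMSO, a ratio of 1002 (179 to 39600). FoxOi_Loperamide over FoxOi was -3.01 ± 0.23, which is 8.13-fold lower (6.81 to 9.77).

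Lgals3, like Gpnmb, was highest in FoxOi, then in FoxOi_Loperamide, and near 0 in the groups without the inhibitor. Lgals3 (ENSMUSG00000050335, chromosome 14, 47367751 to 47386160) had 75, 53 and 37 counts in FoxOi_Loperamide, 227, 192 and 269 in FoxOi, 1, 3 and 1 in Loperamide, and 2, 2 and 2 in DMSO. In CPM it was at 4.08, 3.31 and 2.26 in FoxOi_Loperamide and at 13.2, 10.5 and 13.8 in FoxOi. The libraries with the inhibitor were again all above those without it, and Loperamide overlapped DMSO. Lgals3 rose with the inhibitor in the presence of loperamide, at 4.53 ± 0.41 on the log2 scale (SE, edgeR adjusted p = 1.13e-06) or a ratio of 24.6 (10.3 to 76.7). It too passed the filter on low counts only through libraries with the inhibitor, so this adjusted p is not read as support. FoxOi over DMSO was 6.48 ± 0.33, with 688 against 6 counts. FoxOi_Loperamide over FoxOi was -1.95 ± 0.19, which is 3.85-fold lower (3.25 to 4.59).

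Cd68 was present in every group and rose with the inhibitor by a smaller factor. Cd68 (ENSMUSG00000018774, chromosome 11, 69664213 to 69666153) had 4.14, 4.44 and 5.06 CPM in FoxOi_Loperamide, 17.6, 17.9 and 17.9 CPM in FoxOi, 1.03, 1.37 and 1.22 CPM in Loperamide, and 2.75, 1.87 and 1.61 CPM in DMSO. No groups overlapped, and their order was FoxOi, FoxOi_Loperamide, DMSO and Loperamide. FoxOi_Loperamide over Loperamide was 1.90 ± 0.21 (SE, edgeR adjusted p = 7.93e-06), a ratio of 3.72 (2.702 to 5.226). FoxOi over DMSO was 3.09 ± 0.17, FoxOi_Loperamide over FoxOi -1.97 ± 0.15 and Loperamide over DMSO -0.78 ± 0.24.

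Csf1r, the gene most restricted to macrophages among the 5, was low in every group. Csf1r (ENSMUSG00000024621, chromosome 18, 61100598 to 61132149) had 3, 1 and 0 counts in FoxOi_Loperamide, 18, 17 and 27 in FoxOi, 6, 0 and 5 in Loperamide, and 12, 6 and 8 in DMSO. FoxOi was the highest group at 1.12 ± 0.23 CPM, against 0.576 ± 0.197 CPM in DMSO (SD, n = 3 each), and these groups did not overlap. FoxOi over DMSO was 0.96 ± 0.48, a ratio of 1.97 (1.23 to 3.24) that is the smallest of the 5 genes. FoxOi_Loperamide over Loperamide was -1.80 ± 0.96 (SE, edgeR adjusted p = 0.156), with 4 against 11 counts and overlapping groups, and without Loperamide replicate 2 it was -2.40 (adjusted p = 0.0308). FoxOi_Loperamide over FoxOi was -3.71 ± 0.69, which is 14.3-fold lower (5.32 to 54.2). Loperamide over DMSO was -0.95 ± 0.66, with 11 against 26 counts and overlapping groups. The label of a marker raised by the inhibitor thus rests on 62 against 26 counts for Csf1r. A count of 0 allows up to 0.183 CPM in FoxOi_Loperamide replicate 3 and 0.228 CPM in Loperamide replicate 2. The 3′ end of Csf1r overlaps Hmgxb3 on the opposite strand, which was at 76.2 ± 0.517 CPM in FoxOi_Loperamide, 77.9 ± 4.98 in FoxOi, 72.6 ± 4.11 in Loperamide and 65.7 ± 1.55 in DMSO (SD, n = 3 each). Whether the counting used strand is not given in the sources used here, so reads in the overlap cannot be assigned with certainty.

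**Figure D1:**
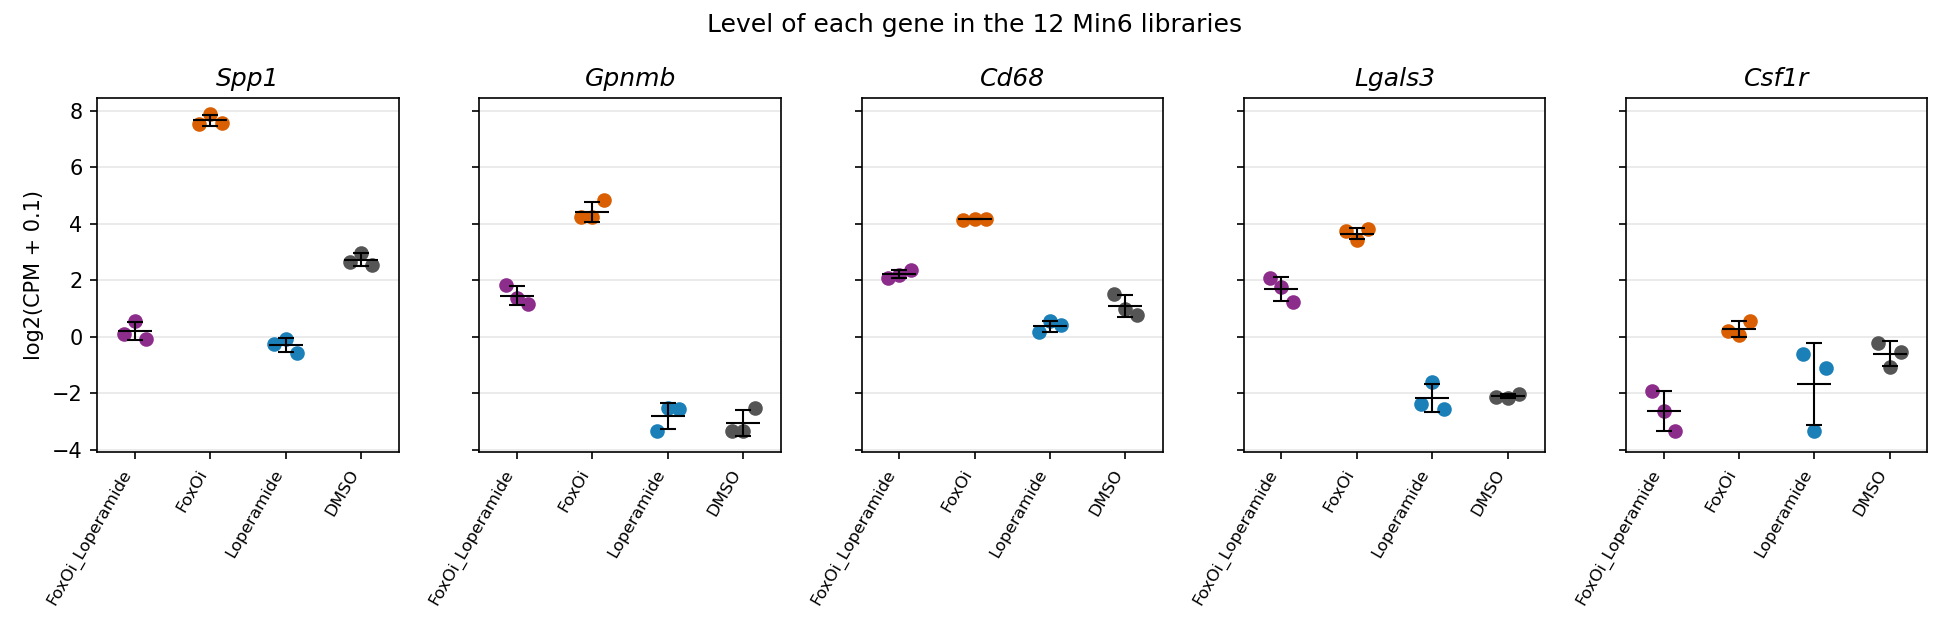
Level of each gene in each of the 12 libraries as log2(CPM + 0.1), with the mean and SD of 3 libraries per group as bars. FoxOi is the highest group in all 5 panels, and Spp1 in FoxOi_Loperamide lies near 1.07 CPM, against 202 CPM in FoxOi.

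Of the 5 genes, 3 were called higher in FoxOi_Loperamide than in Loperamide and 0 were called lower, against 18.4% of all tested genes called higher and 20.5% called lower in that comparison. Gpnmb and Lgals3 passed the filter on low counts only through libraries with the inhibitor, and Csf1r mainly through FoxOi, so the share is not read as support. The comparison shares no library with FoxOi against DMSO, by which the genes were chosen, where 20.7% of all genes were called higher and 20.3% lower. In Loperamide over DMSO 16.1% of genes were called higher and 15.8% lower, and in FoxOi_Loperamide over FoxOi 11.5% and 15.1%. The difference between the inhibitor effects with and without loperamide (the interaction) was called higher for 3.66% and lower for 5.82% of genes. With the replicate number as a block, 9428 genes were called in FoxOi over DMSO against 6881 without it. The block gave 8179 against 5370 in Loperamide over DMSO, 7504 against 4465 in FoxOi_Loperamide over FoxOi, and 4334 against 1594 for the interaction. The inhibitor effect with loperamide minus that without was -4.37 ± 0.41 on the log2 scale for Spp1, -4.03 ± 1.84 for Gpnmb, -1.19 ± 0.29 for Cd68, -1.95 ± 0.88 for Lgals3 and -2.76 ± 1.07 for Csf1r. These hold the contrast by which the genes were chosen and are given with no test.

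**Figure D2:**
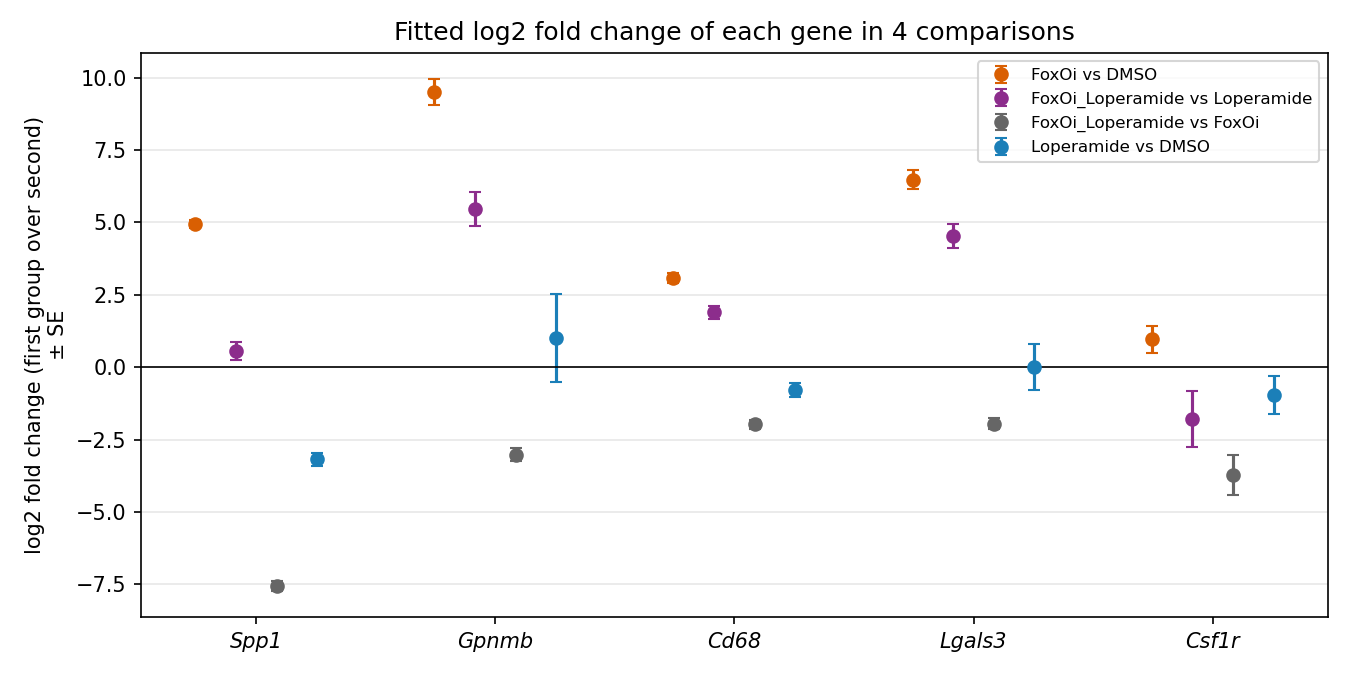
Fitted log2 fold change with its SE (vertical axis, first group over second) for each gene in 4 comparisons. FoxOi over DMSO is above 0 for all 5 genes, FoxOi_Loperamide over FoxOi is below 0 for all 5, and Spp1 has 0.57 ± 0.32 in FoxOi_Loperamide over Loperamide. Values of Gpnmb depend on the prior count where a group has 1 or 2 counts.

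Set per length, the genes differed in abundance and their order changed between groups. In FoxOi_Loperamide the highest was Cd68 at 3.60 ± 0.347 FPKM, then Lgals3 at 2.02 ± 0.590, Spp1 at 0.646 ± 0.163, Gpnmb at 0.593 ± 0.153 and Csf1r at 0.0154 ± 0.0170 (SD, n = 3). In FoxOi it was Spp1 at 121 ± 17.5 FPKM, then Cd68 at 14.0 ± 0.142, Lgals3 at 7.76 ± 1.03, Gpnmb at 4.78 ± 1.21 and Csf1r at 0.226 ± 0.0458. In Loperamide it was Cd68 at 0.951 ± 0.138 FPKM, then Spp1 at 0.433 ± 0.0813, Lgals3 at 0.0819 ± 0.0533, Csf1r at 0.0620 ± 0.0574 and Gpnmb at 0.0108 ± 0.00940. In DMSO it was Spp1 at 3.96 ± 0.674 FPKM, then Cd68 at 1.64 ± 0.454, Csf1r at 0.117 ± 0.0391, Lgals3 at 0.0833 ± 0.00783 and Gpnmb at 0.00542 ± 0.00939. Neighbours in these orders overlapped for Spp1 and Gpnmb in FoxOi_Loperamide, for Lgals3 and Csf1r in Loperamide and in DMSO, and for Csf1r and Gpnmb in Loperamide.

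Most genes that define macrophages as a cell type were near 0, and the exceptions were C1qa and Lyz2. Of 32 macrophage and myeloid defining markers, 2 had enough counts to be tested, 5 had no count in any library (Tyrobp, C1qb, Ctss, Mpeg1 and Timd4) and 22 had 5 counts or fewer over the 12 libraries. Ptprc, the pan-leukocyte antigen CD45, had 1 count in FoxOi_Loperamide, 2 in FoxOi, 1 in Loperamide and 1 in DMSO. Spi1, which encodes PU.1, had 1, 3, 0 and 0 counts in the same order, Adgre1 (F4/80) had 2, 1, 0 and 0, Itgam (CD11b) had 4, 11, 1 and 2, and Cd14 had 0, 16, 2 and 2. Trem2, a receptor of lipid-handling macrophages, had 1 count in FoxOi and 0 in the other groups.

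The 32 markers summed to between 6.71 and 9.85 CPM in FoxOi_Loperamide, 13.5 and 21.2 CPM in FoxOi, 19.1 and 23.4 CPM in Loperamide, and 36.8 and 58.2 CPM in DMSO, an order opposite to that of Gpnmb, Lgals3 and Cd68 for the inhibitor. Most of that sum was C1qa, a complement subunit, with 231 counts in FoxOi_Loperamide, 716 in FoxOi, 655 in Loperamide and 1967 in DMSO. C1qa fell with the inhibitor, by 1.71 ± 0.21 on the log2 scale in FoxOi over DMSO (edgeR adjusted p = 2.10e-05) and by 1.94 ± 0.24 in FoxOi_Loperamide over Loperamide (adjusted p = 2.85e-05). Without C1qa the other 31 markers summed to between 3.29 and 4.08 CPM in FoxOi_Loperamide, 3.59 and 5.63 in FoxOi, 3.36 and 4.39 in Loperamide, and 3.30 and 4.28 in DMSO. Lyz2, the macrophage lysozyme, was at 0.34 ± 0.22 in FoxOi over DMSO (adjusted p = 0.250), and without FoxOi replicate 3 at 0.57 (adjusted p = 0.0347).

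**Figure D3:**
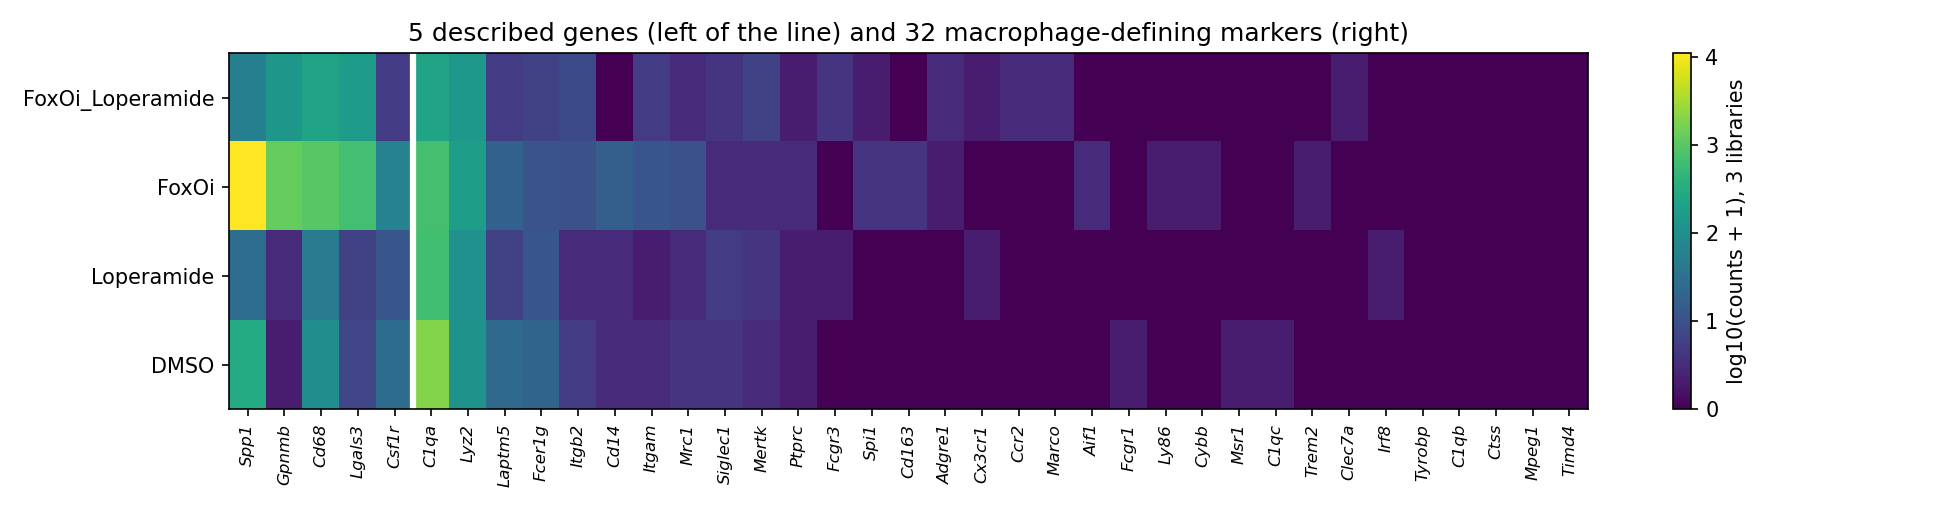
Counts summed over 3 libraries, shown as log10(counts + 1), for the 5 genes (left of the white line) and 32 macrophage-defining markers (right), with the groups FoxOi_Loperamide, FoxOi, Loperamide and DMSO as rows. C1qa, with 231 to 1967 counts a group, and Lyz2, with 109 to 176, stand apart from markers with 50 counts or fewer over all libraries.

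Most markers of other cell types that use these genes stayed under 1 CPM. Of 12 other leukocyte markers 11 stayed under 1 CPM in every library, as did 6 of 7 melanocyte markers, 7 of 9 fibroblast markers, 4 of 6 endothelial markers, 8 of 11 osteoclast markers and 4 of 7 ductal markers. The ductal markers summed to between 118.7 and 172.9 CPM in FoxOi_Loperamide, 127.7 and 165.4 in FoxOi, 167.4 and 228.3 in Loperamide, and 251.1 and 340.7 in DMSO. Most of that sum was Krt7, a keratin of ductal epithelium, at 139.1 ± 27.2 CPM in FoxOi_Loperamide, 139.2 ± 20.1 in FoxOi, 194.7 ± 29.96 in Loperamide and 294.0 ± 44.7 in DMSO (SD, n = 3 each). Krt7 fell in FoxOi over DMSO by 1.08 ± 0.16 on the log2 scale (edgeR adjusted p = 0.000112), and was at -0.48 ± 0.16 in FoxOi_Loperamide over Loperamide (adjusted p = 0.0274, and 0.0630 to 0.118 on leaving out Loperamide replicate 1 or 2 or FoxOi_Loperamide replicate 2 or 3). The other leukocyte markers summed to between 11.2 and 15.5 CPM in FoxOi_Loperamide, 11.6 and 13.9 in FoxOi, 6.76 and 7.52 in Loperamide, and 10.64 and 13.55 in DMSO. Most of that sum was Coro1a, an actin-binding protein of leukocytes, which was named after its values were seen. It rose in FoxOi_Loperamide over Loperamide by 0.95 ± 0.15 (adjusted p = 0.000163) and was at 0.06 ± 0.14 in FoxOi over DMSO (adjusted p = 0.764). The part of Krt7 and Coro1a in the values of the 5 genes was not tested. Over all libraries the melanocyte markers summed to between 0.925 and 2.25 CPM, the fibroblast markers to between 1.19 and 4.53 CPM and the endothelial markers to between 0.732 and 3.08 CPM. The osteoclast markers summed to between 11.97 and 14.44 CPM in FoxOi_Loperamide, 17.2 and 19.6 in FoxOi, 16.1 and 17.7 in Loperamide, and 14.3 and 15.8 in DMSO. The one osteoclast marker called higher in FoxOi over DMSO was Nfatc1, the calcium-regulated factor of osteoclast formation, at 1.15 ± 0.15 on the log2 scale (edgeR adjusted p = 2.28e-05). In FoxOi_Loperamide over Loperamide Nfatc1 was at 0.50 ± 0.17 (adjusted p = 0.0285), and without Loperamide replicate 1, Loperamide replicate 3 or FoxOi_Loperamide replicate 2 the adjusted p was 0.0601, 0.120 and 0.112. It was 0.0595 by DESeq2, 0.0824 with no filter on low counts and 0.0548 in a fit to those groups alone. Of 3 osteoclast markers tested, 1 was called higher and 2 lower in that comparison, against 18.4% and 20.5% of all genes. Those called lower were Ctsk at -0.97 ± 0.35 (edgeR adjusted p = 0.0401) and Tnfrsf11a at -0.53 ± 0.13 (0.00432). Both were named after their values were seen. In FoxOi over DMSO 1 was called higher and 0 lower, against 20.7% and 20.3% of all genes.

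Genes of the lysosome, the compartment of the Cd68 and Gpnmb proteins, moved with the inhibitor. The list holds 30 genes of the CLEAR network, the lysosomal set controlled by MiT/TFE factors, and was chosen with earlier results of these data known, as were all lists below. In FoxOi over DMSO 23 of 30 were called higher and 1 lower, with a list median of 0.50 against 0.01 over all genes. In FoxOi_Loperamide over Loperamide 21 were called higher and 2 lower, with a median of 0.43 against -0.01. Over all genes 20.7% were called higher and 20.3% lower in the first comparison, and 18.4% and 20.5% in the second. Gla, alpha-galactosidase, rose in FoxOi_Loperamide over Loperamide by 1.54 ± 0.12 on the log2 scale, and Ctsb, the protease cathepsin B, by 1.23 ± 0.11. Neu1, a sialidase, rose by 0.76 ± 0.09, and Sqstm1, the autophagy receptor p62, by 0.67 ± 0.13 (edgeR adjusted p from 1.97e-07 to 0.00109). In FoxOi over DMSO these 4 genes were at 1.40 ± 0.11, 1.00 ± 0.11, 1.17 ± 0.09 and 1.56 ± 0.13 in the same order. The genes called lower were Ctsf, cathepsin F, at -1.53 ± 0.10 and Wipi1, an autophagosome protein, at -2.11 ± 0.13 in FoxOi_Loperamide over Loperamide, both named after their values were seen. In Loperamide over DMSO 7 lysosomal genes were called higher and 7 lower, against 16.1% and 15.8% of all genes.

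Of the MiT/TFE factors and their regulators, 9 of 10 were tested. In FoxOi over DMSO 5 were called higher and 1 lower, in FoxOi_Loperamide over Loperamide 2 and 2, and in Loperamide over DMSO 6 and 0. Over all genes the shares called higher and lower were 20.7% and 20.3%, 18.4% and 20.5%, and 16.1% and 15.8% in the same order. Rragd and Rragc, GTPases that bring these factors and mTORC1 to the lysosome, rose in FoxOi over DMSO by 1.92 ± 0.12 and 0.89 ± 0.08. In FoxOi_Loperamide over Loperamide they rose by 1.09 ± 0.12 and 0.43 ± 0.08, and in Loperamide over DMSO by 1.66 ± 0.12 and 0.91 ± 0.08. Flcn and Fnip2 of the same list rose in FoxOi over DMSO by 0.50 ± 0.09 and 0.79 ± 0.14, and in Loperamide over DMSO by 1.40 ± 0.09 and 1.03 ± 0.14. In FoxOi_Loperamide over Loperamide Flcn was at -0.14 ± 0.09 (edgeR adjusted p = 0.211) and Fnip2 at 0.16 ± 0.14 (0.389). Among the factors themselves, Mitf was at 2.61 ± 0.189 CPM in FoxOi_Loperamide, 6.97 ± 0.914 in FoxOi, 4.21 ± 0.0326 in Loperamide and 4.95 ± 0.486 in DMSO (SD, n = 3 each), and fell in FoxOi_Loperamide over Loperamide by 0.69 ± 0.17 (edgeR adjusted p = 0.00438). Its value in FoxOi over DMSO was 0.50 ± 0.14 (adjusted p = 0.0127), and on leaving out DMSO replicate 1, DMSO replicate 2 or FoxOi replicate 2 the adjusted p was 0.0608, 0.0735 and 0.0668. Tfeb was at -0.31 ± 0.16 in FoxOi over DMSO (adjusted p = 0.146, and 0.0262 with the replicate block). Leaving out FoxOi replicate 1 gave Tfeb -0.52 (adjusted p = 0.0233) and leaving out DMSO replicate 3 gave -0.46 (0.0443). Tfe3 was at -0.03 ± 0.09 (adjusted p = 0.843).

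Among 22 genes of lipid-associated macrophages, a state in which Spp1, Gpnmb, Lgals3 and Trem2 are typical, 12 were tested. In FoxOi over DMSO 9 were called higher and 1 lower, against 20.7% and 20.3% of all genes. In FoxOi_Loperamide over Loperamide 8 and 2 were called, against 18.4% and 20.5% of all genes. The members called higher include lysosomal genes that the CLEAR list also holds, such as Ctsb. Lpl, lipoprotein lipase, rose in FoxOi_Loperamide over Loperamide by 1.59 ± 0.12 and in FoxOi over DMSO by 1.12 ± 0.11, and Cd63, a lysosomal tetraspanin, by 0.65 ± 0.09 and 1.47 ± 0.09. Abca1, the cholesterol exporter, fell by 2.40 ± 0.17 and 1.78 ± 0.16 in the same comparisons. The 10 genes too low to be tested include Trem2, Itgax, Clec7a and Cst7, which are restricted to myeloid cells.

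Factors known to act on the 5 genes in other cells were tested for 15 of 21. In FoxOi over DMSO 13 were called higher and 0 lower, with a median of 1.15 on the log2 scale against 0.01 over all genes. In FoxOi_Loperamide over Loperamide 7 were called higher and 1 lower, with a median of 0.47 against -0.01. Over all genes 20.7% were called higher and 20.3% lower in the first comparison, and 18.4% and 20.5% in the second. Jun, a subunit of AP-1, had 199 ± 34.3 CPM in FoxOi_Loperamide, 143 ± 15.8 in FoxOi, 56.3 ± 4.76 in Loperamide and 23.8 ± 2.17 in DMSO (SD, n = 3 each). It rose in FoxOi_Loperamide over Loperamide by 1.82 ± 0.13 and in FoxOi over DMSO by 2.59 ± 0.13. Fosl1, the AP-1 subunit Fra-1, had 0.343 ± 0.223 CPM in FoxOi_Loperamide, 11.1 ± 2.85 in FoxOi, 0.121 ± 0.149 in Loperamide and 0.477 ± 0.208 in DMSO, and FoxOi_Loperamide over FoxOi was -4.94 ± 0.37 (edgeR adjusted p = 2.33e-07). Its FoxOi libraries were thus high and its FoxOi_Loperamide libraries low, the order seen for Spp1. Fosl1 was named by a small adjusted p in FoxOi over DMSO, which shares the FoxOi libraries. Its call in FoxOi_Loperamide over FoxOi is therefore not read as support. Klf6, a zinc finger factor, rose in FoxOi_Loperamide over Loperamide by 1.00 ± 0.15 and in FoxOi over DMSO by 2.03 ± 0.15, and Ets2, an ETS factor, by 1.00 ± 0.09 and 1.15 ± 0.09. The myeloid factor Spi1 was too low to be tested.

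**Figure D4:**
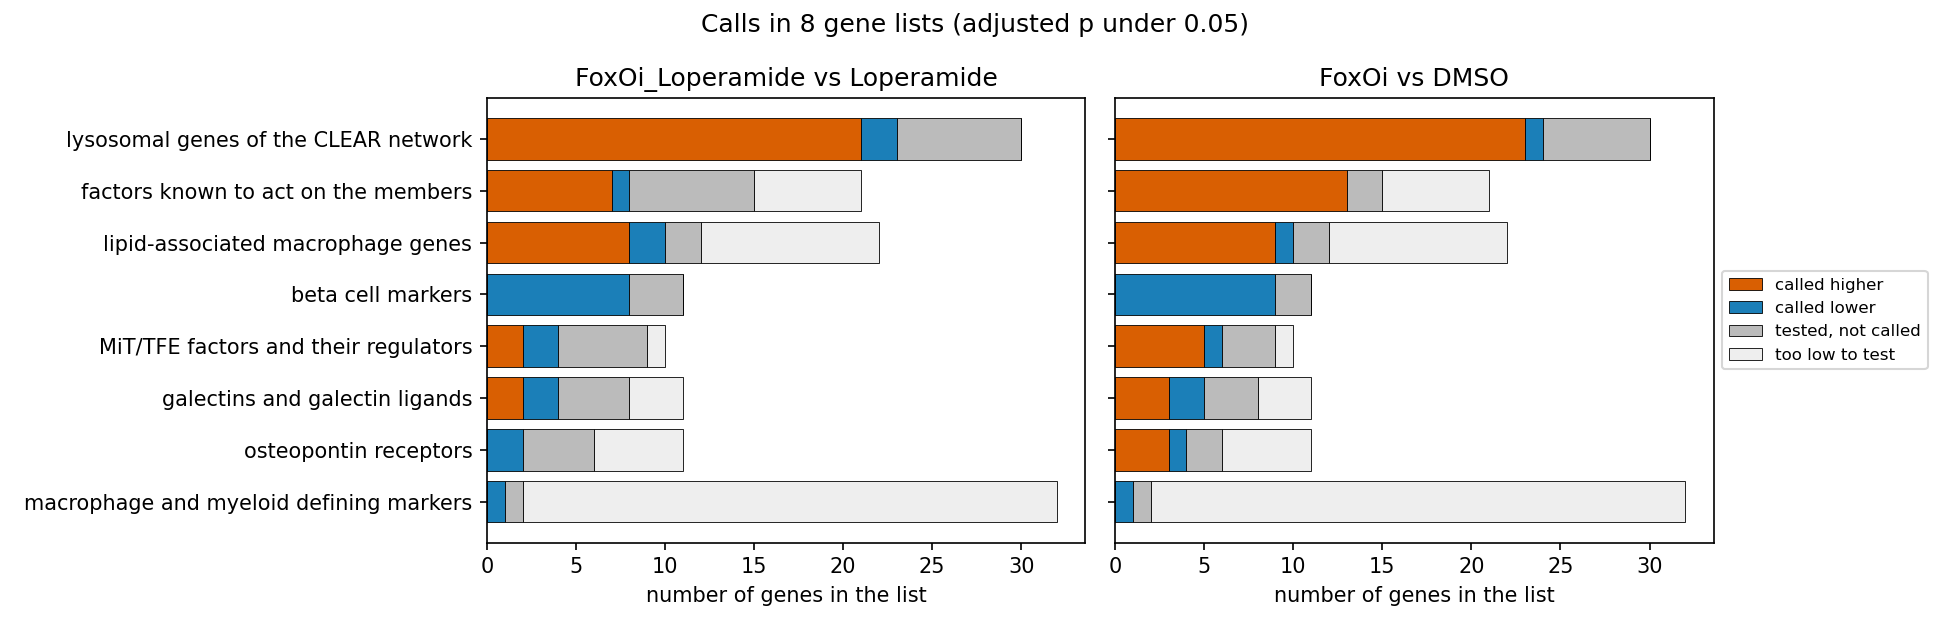
Number of genes (horizontal axis) called higher, called lower, tested and not called, or too low to test in 8 lists (the galectins without Lgals3), for FoxOi_Loperamide over Loperamide (left) and FoxOi over DMSO (right). Of 30 lysosomal genes 21 were called higher on the left and 23 on the right, while 30 of 32 macrophage-defining markers were too low to test. Over all tested genes 18.4% were called higher and 20.5% lower on the left, and 20.7% and 20.3% on the right.

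The receptors of osteopontin, the protein of Spp1, are given with the share of all genes called. Of 11 genes 6 were tested, with 3 called higher and 1 lower in FoxOi over DMSO, 0 and 2 in FoxOi_Loperamide over Loperamide, and 0 and 5 in FoxOi_Loperamide over FoxOi. Over all genes the shares called higher and lower were 20.7% and 20.3%, 18.4% and 20.5%, and 11.5% and 15.1% in the same order. Cd44, a hyaluronan and osteopontin receptor, had 8.64 ± 1.37 CPM in FoxOi_Loperamide, 25.2 ± 5.16 in FoxOi, 19.8 ± 1.39 in Loperamide and 22.3 ± 3.31 in DMSO (SD, n = 3 each). It fell in FoxOi_Loperamide over Loperamide by 1.20 ± 0.17 (edgeR adjusted p = 5.75e-05) and was at 0.18 ± 0.15 in FoxOi over DMSO (adjusted p = 0.370). Itgb5, an integrin chain, rose in FoxOi over DMSO by 0.55 ± 0.10, and Itgav, its partner, by 1.11 ± 0.27. In FoxOi_Loperamide over Loperamide these were at -0.06 ± 0.10 and 0.00 ± 0.26. Itgb1 was at 0.40 ± 0.12 in FoxOi over DMSO (adjusted p = 0.0143), and on leaving out DMSO replicate 1, DMSO replicate 2 or FoxOi replicate 3 the adjusted p was 0.0778, 0.0840 and 0.0619. The receptor chain called lower was Itga4, at -0.95 ± 0.33 in FoxOi over DMSO (adjusted p = 0.0293) and -1.20 ± 0.39 in FoxOi_Loperamide over Loperamide (adjusted p = 0.0252). Its adjusted p was 0.117 and 0.114 in FoxOi over DMSO on leaving out DMSO replicate 3 or FoxOi replicate 2. It was between 0.0788 and 0.178 in FoxOi_Loperamide over Loperamide on leaving out Loperamide replicate 3 or FoxOi_Loperamide replicate 1 or 2. Itgb3, the macrophage and osteoclast integrin chain, was too low to be tested.

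The ligands of the CSF1 receptor were Csf1 and Il34. Csf1 had 19.3 ± 2.01 CPM in FoxOi_Loperamide, 10.6 ± 1.01 in FoxOi, 25.5 ± 3.99 in Loperamide and 8.72 ± 0.867 in DMSO (SD, n = 3 each). It rose with loperamide, by 1.55 ± 0.14 over DMSO (edgeR adjusted p = 1.60e-06), and was at 0.28 ± 0.14 in FoxOi over DMSO (adjusted p = 0.127). Il34 had 2 counts in FoxOi_Loperamide, 50 in FoxOi, 2 in Loperamide and 1 in DMSO, and was called higher in FoxOi over DMSO (edgeR adjusted p = 0.000138). Il34 passed the filter on low counts only through FoxOi libraries, so this adjusted p is not read as support.

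Lgals3 left out, 8 of 11 galectins and galectin ligands were tested. In FoxOi over DMSO 3 were called higher and 2 lower, against 20.7% and 20.3% of all genes. In FoxOi_Loperamide over Loperamide 2 and 2 were called, against 18.4% and 20.5% of all genes. Lamp1 and Lamp2, lysosomal glycoproteins that galectin-3 binds and relatives of Cd68, rose in FoxOi_Loperamide over Loperamide by 0.67 ± 0.08 and 0.65 ± 0.14 and in FoxOi over DMSO by 0.37 ± 0.08 and 0.88 ± 0.14. Lgals12, an adipocyte galectin, fell in FoxOi over DMSO by 1.45 ± 0.23. Lgals9 was at 0.26 ± 0.29 (edgeR adjusted p = 0.504) and Lgals3bp, a galectin-binding glycoprotein, at -0.11 ± 0.11 (adjusted p = 0.428) in that comparison. Lgals1 was at 1.02 ± 0.33 (adjusted p = 0.0236), and the adjusted p was between 0.0518 and 0.0961 on leaving out DMSO replicate 2 or 3 or FoxOi replicate 1 or 2, 0.0865 by DESeq2 and 0.0710 with no filter. The relatives of Spp1 in the SIBLING family, Ibsp, Dmp1, Mepe and Dspp, were too low to be tested.

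The genes whose pattern was most like each of the 5 were ranked by Pearson's r of log2(CPM + 0.5) over the 12 libraries, over 12367 genes whose mean level reached 1 CPM. These are descriptions over libraries that share the same 4 groups. For Spp1 they were Yipf7 (r = 0.996), the cytokine Il4 (0.991) and Plaur, the urokinase receptor (0.990), and Plaur had 0.234 ± 0.0958 CPM in FoxOi_Loperamide, 6.91 ± 0.199 in FoxOi, 0.130 ± 0.0318 in Loperamide and 1.07 ± 0.280 in DMSO. For Gpnmb they were Zfand2a, a proteasome-associated stress protein (0.993), Areg, the growth factor amphiregulin (0.993), and Car6, a secreted carbonic anhydrase (0.989). Areg had 8.07 ± 0.0829 CPM in FoxOi_Loperamide, 136 ± 27.8 in FoxOi, 0.210 ± 0.0214 in Loperamide and 0.406 ± 0.170 in DMSO. For Cd68 they were Ascc2 (0.985), Car6 (0.985) and Zfand2a (0.984), and for Lgals3 Zfand2a (0.991), Hpgds, a prostaglandin D synthase (0.991), and Slc20a1, a phosphate transporter (0.989). Zfand2a was thus among the nearest genes of Gpnmb, Cd68 and Lgals3. For Csf1r they were Fxyd5 (0.949), Ryr2, a calcium release channel (0.929), and Rasd1 (0.924).

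Among the 5 genes, r was 0.992 between Lgals3 and Gpnmb, 0.970 between Cd68 and Gpnmb and 0.958 between Lgals3 and Cd68. It was 0.842 between Cd68 and Spp1, 0.817 between Csf1r and Spp1, 0.765 between Gpnmb and Spp1 and 0.707 between Lgals3 and Spp1. It was lowest for Csf1r with Cd68 (0.516), Gpnmb (0.447) and Lgals3 (0.363). The libraries compared include those by which the genes were chosen, and they share the same groups. The high r among Gpnmb, Lgals3 and Cd68 is therefore a description and is not read as support.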

How the data were processed

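RNA from 12 Min6 libraries was sequenced as 50-base single reads from a stranded mRNA kit, per the labels' protocols. The authors deposited whole-number counts per gene and FPKM values. STAR 2.7.5a, Picard 2.19.2 and DESeq2 are named, with builds GRCm38 and mm10, per the submitters' processing notes. How reads were assigned to genes, and whether strand was used, is not stated in the labels. A check on 11651 genes showed the deposited FPKM to be the counts over gene length, scaled per library to within 0.355% of DESeq2 size factors. Gene locations are those of the file, and 98.8% are as in GENCODE M21.

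Counts were tested in R 4.3.3 with edgeR 4.0.16 (TMM, filterByExpr with minimum count 10 and minimum total 15, robust quasi-likelihood fit to all 12 libraries, group as the only term). P-values were Benjamini-Hochberg adjusted over 16808 genes. Log2 fold changes used a prior count of 0.125, and SE was taken as |log2 fold change| over the root of the F statistic. Depth was 10640485 to 19499216 counts per library. Ratios are of summed counts per scaled library size with exact (Clopper-Pearson) 95% intervals. Intervals and the limit of 3 counts for a count of 0 reflect counting error alone, because the reads carry no molecular tags.

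The genes described and all gene lists were chosen with earlier results of these data known. Named genes are the 5 genes, 21 fixed partners, up to 4 called genes per list with the smallest adjusted p in FoxOi over DMSO, and the 3 most correlated genes of each of the 5. Of these, 1 lysosomal gene is not reported here. Genes outside that rule are said to be named after their values were seen. Alternatives were RLE scaling, DESeq2 1.42.0, no filter, a replicate block, fits to the compared groups only and leaving out each library.

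Labels number the libraries 1 to 3 in each group, with 1 code per number across groups, and do not say what the number stands for. Deviations from group means correlated at 0.120 to 0.480 between same-numbered FoxOi and DMSO libraries, 0.135 to 0.423 for Loperamide and DMSO, and 0.142 to 0.451 for FoxOi_Loperamide and FoxOi. By a threshold of 0.1 for every pair, the numbers pair these libraries. The values in the text are nonetheless from the fit without the block. Those with the block are given for the number of all called genes and where they change the call of a named gene. Chi-square per degree of freedom between libraries of 1 group was 5.34 to 33.5, so none was counted as a repeat of another.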

Additional observations from a re-analysis of the deposited data

Results flagged for a closer look

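By edgeR's interaction test (adjusted p under 0.05), the inhibitor effect with loperamide differed from that without it for 14 of 51 named partner and list genes. Some of the 51 were too low to be tested. Over all tested genes, 3.66% were called higher and 5.82% lower by this test. The 5 described genes were left out, since the interaction test holds the contrast by which they were chosen. The same limit holds for genes named by a small adjusted p in FoxOi over DMSO. These are Cd63, Sqstm1, Flcn, Rragd, Rragc, Klf6, Jun, Lgals12, Pdx1 and Mafa, and their calls are not read as support. Values are the effect with loperamide minus the effect without, on the log2 scale. Among receptors and ligands the value was -1.38 for Cd44, -0.61 for Itgb5 and -0.69 for Csf1. Among lysosomal genes and their regulators it was -0.82 for Cd63, -0.90 for Sqstm1, -1.19 for Mitf, -0.64 for Flcn, -0.83 for Rragd and -0.46 for Rragc. Among other transcription factors it was -1.03 for Klf6 and -0.76 for Jun. It was 1.64 for the galectin Lgals12, 0.64 for Pdx1 and 1.07 for Mafa, both of which are beta cell factors that fell less with the inhibitor when loperamide was present.

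The Csf1 call was lost without any single DMSO library, without FoxOi replicate 1 or 3, without FoxOi_Loperamide replicate 1 or 2 and without Loperamide replicate 3, with adjusted p from 0.0571 to 0.106. The Rragc call was lost on leaving out DMSO replicate 1 (-0.37, adjusted p = 0.0592) or DMSO replicate 2 (-0.40, 0.0823) and with no filter (-0.42, 0.0745). The Lgals12 call was lost without FoxOi_Loperamide replicate 1 (1.22, adjusted p = 0.0715).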

How the results depend on the processing

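In FoxOi_Loperamide over Loperamide, Gpnmb, Cd68 and Lgals3 kept their call and direction in every alternative run. Gpnmb and Lgals3 passed the filter on low counts only through libraries with the inhibitor, so their kept calls are not read as support. Leaving out 1 library gave 5.06 to 5.81 for Gpnmb, 1.81 to 1.99 for Cd68 and 4.21 to 5.19 for Lgals3. Spp1 stayed uncalled at 0.36 to 0.71, and Csf1r ran from -2.95 to -1.15 and was called without Loperamide replicate 2 (-2.40). Csf1r was too low to be tested in a fit to those 2 groups alone.

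The replicate block raised the called genes to 9428 in FoxOi over DMSO, 8179 in Loperamide over DMSO, 7504 in FoxOi_Loperamide over FoxOi and 4334 for the interaction. In FoxOi_Loperamide over Loperamide 1 same-numbered pair correlated at 0.0915, under the threshold of 0.1, so the numbers were not counted as pairs there. That value does not show that pairing is absent. The block gave 9014 called genes against 6541 without it and changed no call of the 5 genes, and all 6 libraries correlated best with their own number, a hint from the data. It also called Itgb1 (adjusted p = 0.0136) and Lgals3bp (0.0165) there. Tfeb in FoxOi over DMSO was the other call the block changed among named genes. Leaving out 1 library gave 5479 to 5771 called genes in FoxOi_Loperamide over Loperamide, 5617 to 6732 in FoxOi over DMSO, 4044 to 5356 in Loperamide over DMSO, 3284 to 3881 in FoxOi_Loperamide over FoxOi and 1082 to 1894 for the interaction.

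Of 128 called results of named genes, 99 kept their call in every alternative and 29 lost it in at least 1. Uncalled values that changed sign on leaving out 1 library ran from -0.059 to 0.44 for Lgals9 and from -0.088 to 0.042 for Tfe3 in FoxOi over DMSO. In FoxOi_Loperamide over Loperamide they ran from -0.23 to 0.43 for Lgals12, from -0.91 to 0.12 for Il34, from -0.16 to 0.27 for Itgav and from -0.15 to 0.013 for Lyz2. The cause was not tested. With the window of 250 bases before the start only, AP-1 was found in 6.75% of promoters, PU.1 in 2.44%, the E-box in 6.02%, the M-box in 12.3% and the forkhead word in 3.16%. Low counts limit Csf1r in every group and Gpnmb and Lgals3 in Loperamide and DMSO.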
